A study of Mus musculus with 2 samples.

Results

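The Ifi200 locus is a run of interferon-inducible genes on distal mouse chromosome 1. The 10 members described here are Ifi202b, Ifi203, Ifi204, Ifi205, Ifi207, Ifi208, Ifi209, Ifi211, Ifi213 and Mndal, out of 31054 features in the count tables. They were selected on their measured values in these same libraries, by how far a member's level differed between the 2 libraries within stellate, endothelial and Kupffer cells, so the library contrast below is a description and no test of it was made. One member, Ifi208, was near-absent from a single library in all 3 cell classes. Of the others, 8 were measured in both libraries of at least 1 class, most of them higher in p16-Alb-LRTD by degree, and Ifi202b was all but undetected.

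Ifi200 genes encode PYHIN proteins, most of which join an N-terminal pyrin domain, which binds other pyrin domains, to 1 or more C-terminal HIN domains, which bind double-stranded DNA. The family is known for sensing DNA in the cytosol and the nucleus and for restraining growth and transcription, and many of its members are switched on by type I interferon through interferon-stimulated response elements. The same cluster holds Aim2, whose protein builds an inflammasome on cytosolic DNA. In the liver the family is best known from macrophages, and mouse strains differ in which of its genes they carry and express.

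The study asked how non-parenchymal liver cells, chiefly hepatic stellate cells, the vitamin A-storing cells that make collagen in the injured liver, differ when hepatocytes with high p16 are removed. Both libraries came from livers of male mice on a C57BL/6 background that received carbon tetrachloride (CCl4, a hepatotoxin given for 4 weeks to cause fibrosis), tamoxifen and diphtheria toxin. The p16-LRTD library came from littermate controls with p16-CreERT2 and the R26-CAG-LSL-RSR-tdTomato-2A-DTR reporter, and the p16-Alb-LRTD library from mice that also had Alb-DreERT2, so that Cre under p16 control and Dre under the albumin promoter together switch on the diphtheria toxin receptor in p16-high hepatocytes. There was 1 library per genotype, 3′ tag sequencing of cells enriched on a density gradient. The age of the mice and the number of livers behind each library are not given in the sources used here, and genotype, liver and library cannot be told apart. Hepatocytes, the cells that the toxin targets, formed no class here (their markers summed to between 17.0 and 92.4 CPM in the 3 classes, as defined in the next paragraph, and to 1319.8 and 958.1 CPM in unclassified cells), so their removal could not be read from these libraries.

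After filtering, 9004 and 7416 barcodes remained in the p16-LRTD and p16-Alb-LRTD library, of 11149 and 8806 deposited. The libraries held 193746596 and 162219167 UMIs (unique molecular identifiers, each counted as 1 transcript) in all deposited barcodes. Stellate cells numbered 7852 and 6621, endothelial cells 430 and 283, and Kupffer cells, the resident macrophages of the liver, 283 and 178. Median depth was 17024.5 and 18136 UMIs in stellate cells, 11781 and 11992 in endothelial cells, and 19514 and 25101.5 in Kupffer cells. Marker genes that took no part in the class rules were at 5 CPM (UMIs of a gene per 1000000 UMIs of the class) or more for 8 of 8 stellate markers in stellate cells, 7 of 7 endothelial markers in endothelial cells and 8 of 8 macrophage markers in Kupffer cells. The macrophage markers summed to 15434.6 and 17151.8 CPM in Kupffer cells, and to 58.1 and 38.7 CPM in stellate cells. The libraries shared 95 barcodes, 22 of them kept in each.

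On GRCm38, the members lie between chr1:173566283-174031810, a span of 465.5 kb in which the annotation places no other feature of the tables whole. From the centromeric side the order is Ifi213, Ifi209, Ifi208, Ifi207, Ifi204, Mndal, Ifi211, Ifi203, Ifi202b and Ifi205. Ifi208 occupies chr1:173673675-173698395 on the forward strand, as does Ifi209 beside it, and the other 8 members lie on the reverse strand. Mndal runs over 22085 bases of Ifi203 and 16702 bases of Ifi211 on the same strand, so reads in those stretches cannot be assigned by position alone.

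Promoters of 9 of the 10 members were matched in RefSeq (GRCm38.p6), all but that of Ifi204. The 250 bases before the start of Ifi208, of its neighbour Ifi213 and of Ifi206, a PYHIN gene just outside the span, are shown because these 3 promoters are nearly the same sequence, while the levels of the genes differed as described further on. Each is written 5′ to 3′ on the gene's own strand, with capitals on the letters GAAANNGAA, the core of an interferon-stimulated response element.
Ifi208, chr1:173673415-173673664, forward strand: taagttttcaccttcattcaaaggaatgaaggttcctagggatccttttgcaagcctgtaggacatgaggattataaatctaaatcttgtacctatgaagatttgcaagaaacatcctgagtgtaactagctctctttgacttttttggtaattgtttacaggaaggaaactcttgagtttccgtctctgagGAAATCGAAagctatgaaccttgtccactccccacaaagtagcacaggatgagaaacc
Ifi213, chr1:173599273-173599522, reverse strand: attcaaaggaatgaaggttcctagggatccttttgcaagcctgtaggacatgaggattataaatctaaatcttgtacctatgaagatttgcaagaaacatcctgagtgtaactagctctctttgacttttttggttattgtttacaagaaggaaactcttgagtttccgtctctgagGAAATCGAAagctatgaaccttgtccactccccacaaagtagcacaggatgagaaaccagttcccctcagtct
Ifi206, chr1:173491319-173491568, reverse strand: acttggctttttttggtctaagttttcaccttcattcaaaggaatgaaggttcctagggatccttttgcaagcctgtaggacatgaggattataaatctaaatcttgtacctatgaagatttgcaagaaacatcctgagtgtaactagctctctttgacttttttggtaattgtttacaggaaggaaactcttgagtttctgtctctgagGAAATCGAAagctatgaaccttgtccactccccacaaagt
In a global alignment, Ifi208 and Ifi213 matched at 233 of 235 aligned bases and Ifi208 and Ifi206 at 231 of 232. The longest unbroken run shared was 135 bases for the first pair and 182 bases for the second. The capitals stand 58, 73 and 40 bases before the RefSeq start of Ifi208, Ifi213 and Ifi206. These starts differ from those of the annotation used for the gene positions (GENCODE vM21), in which Ifi206 begins at chr1:173491041 on the reverse strand.

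The same letters were found before 7 of the 9 members with an entry, in each as GAAATCGAA or GAAATTGAA on the gene's strand. As several promoters of the members are nearly alike, their entries are not separate occurrences, and no enrichment is read. On either strand, 8 of 11 member entries and 7.15% of all 32544 promoters of this length held GAAANNGAA (written TTCNNTTTC on the opposite strand). The other members that hold it are shown with 20 bases on each side, because the bases around the match also fall into pairs.
Ifi203, chr1:173942499-173942547, reverse strand: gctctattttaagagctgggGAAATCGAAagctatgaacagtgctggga
Mndal, chr1:173880195-173880243, reverse strand: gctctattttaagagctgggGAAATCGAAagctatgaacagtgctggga
Ifi205, chr1:174031861-174031909, reverse strand: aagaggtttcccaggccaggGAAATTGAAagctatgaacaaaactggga
Ifi211, chr1:173913055-173913103, reverse strand: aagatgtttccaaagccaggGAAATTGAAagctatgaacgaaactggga
Ifi207, chr1:173741822-173741870, reverse strand: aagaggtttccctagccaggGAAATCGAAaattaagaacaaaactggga
Ifi203 and Mndal are identical over these 49 bases, and Ifi205, Ifi211 and Ifi207 resemble one another. Ifi203 and Mndal have 2 RefSeq starts each, and the match shown lies before 1 of them. Before its other start Mndal holds the same letters on the opposite strand. Ifi209 and Ifi202b had no match in this window. The other motif searched, TTCNNNGAA, which reads the same on both strands, was found before 1 member, Ifi202b, and in 7.04% of all promoters. A match is a description of letters and says nothing of binding in these cells.

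Ifi208, a gene of the PYHIN family, was detected in p16-LRTD stellate cells by 1 UMI and in p16-Alb-LRTD stellate cells by 2665 UMIs. These counts correspond to 0.00701 CPM (95% exact Poisson interval 0.000177 to 0.0391) and 21.3 CPM (20.5 to 22.1). All intervals here cover counting error only, since each genotype had 1 library. The log2 ratio of p16-Alb-LRTD to p16-LRTD was 11.57 (exact interval 9.09 to 16.87). In Kupffer cells 1 UMI faced 83, or 0.168 against 18.6 CPM, a log2 ratio of 6.79 (4.27 to 12.11). In endothelial cells 6 UMIs faced 109, or 0.975 against 27.4 CPM, a log2 ratio of 4.81 (3.64 to 6.29). The level in the p16-Alb-LRTD library was thus of one order in the 3 classes, 18.6 to 27.4 CPM. The p16-LRTD levels rest on 1 UMI in stellate, 1 in Kupffer and 6 in endothelial cells. The Kupffer interval, 0.00426 to 0.937 CPM, overlaps the stellate interval and the endothelial interval, 0.358 to 2.12 CPM. A difference between the classes was not tested.

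A member was called near-absent when it reached 5 CPM in a library and at most 5% of that level in the other. Ifi208 was the 1 member called in each class, at 0.0329% of its higher level in stellate, 0.907% in Kupffer and 3.56% in endothelial cells. The next lowest share of a member at 5 CPM was 37.2%, for Ifi211 in Kupffer cells. The endothelial call was lost when per-cell CPM were averaged, when cells with a macrophage UMI were left out or with a limit of 2%, and the Kupffer call with a minimum of 20 CPM. Across all features at 5 CPM or more, the same call was met by 0.0193% of 10367 features in stellate cells, 0.303% of 10218 in endothelial cells and 0.0306% of 9802 in Kupffer cells. Since the members were chosen on this contrast, nothing is read from these shares.

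Of all features, 33 were near-absent from a library in at least 1 class, 31 of them in just 1 class. Ifi208 was the 1 feature called in all 3 classes. The other feature called in more than 1 class was Ube2c, an enzyme that tags mitotic proteins for destruction, and it was lower in p16-Alb-LRTD: 22.3 against 1.10 CPM in stellate, 8.61 against 0.251 in endothelial and 13.5 against 6.71 in Kupffer cells.

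**Figure D1:**
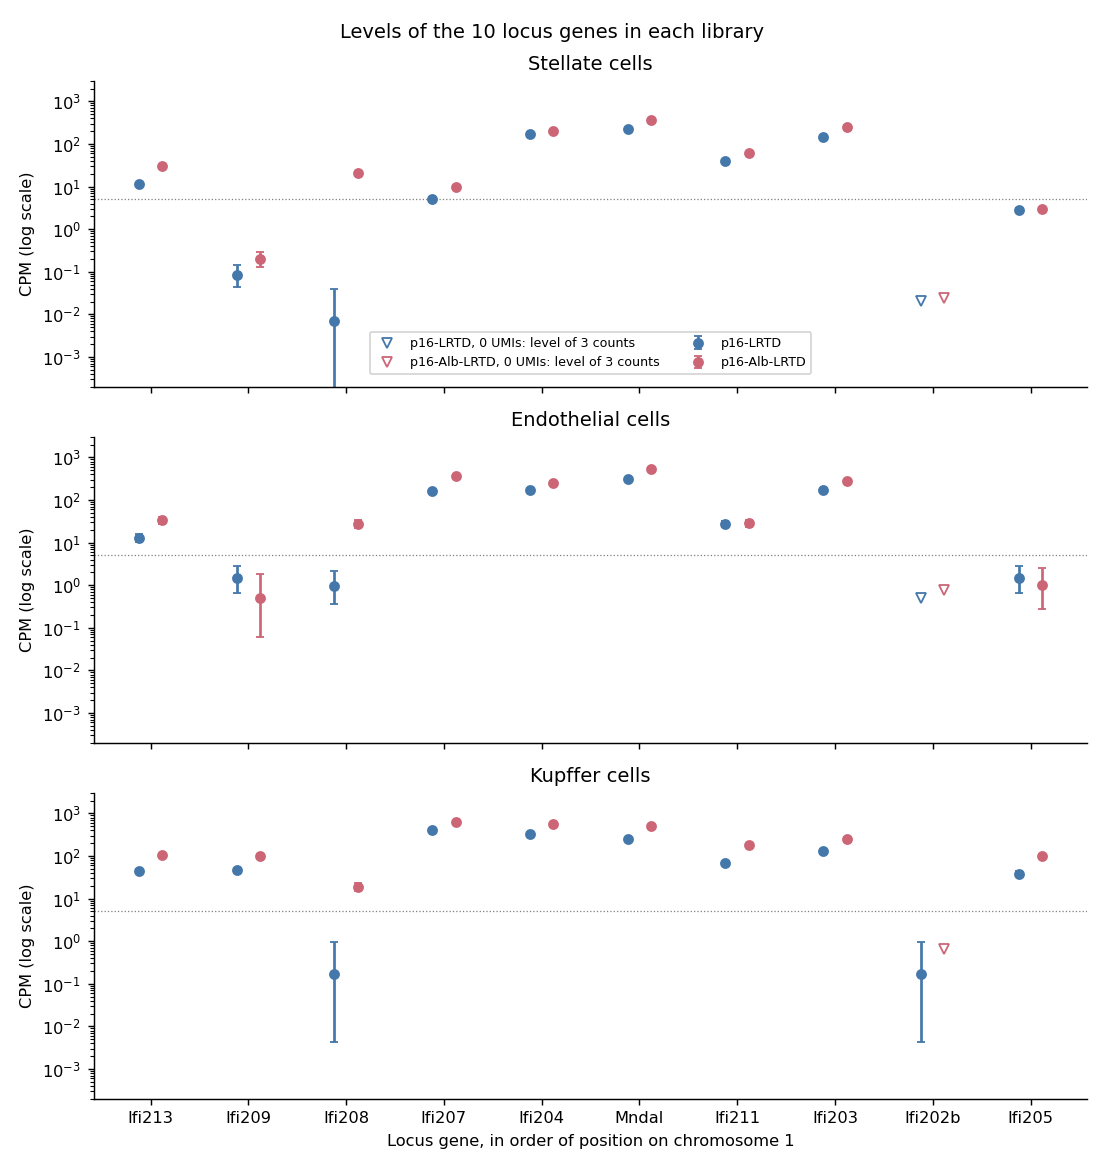
Level of each of the 10 members in CPM on a log axis, in the order of their positions, for stellate, endothelial and Kupffer cells, with p16-LRTD in blue and p16-Alb-LRTD in red. Points are the summed UMIs of 1 library, bars are 95% exact Poisson intervals (many are smaller than the points), triangles mark the level of 3 counts where 0 UMIs were found, and the dotted line is 5 CPM. Ifi208 stands apart in each panel, from 0.00701, 0.975 and 0.168 CPM in p16-LRTD to 21.3, 27.4 and 18.6 CPM in p16-Alb-LRTD.

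The few Ifi208 transcripts of the p16-LRTD library were looked up barcode by barcode. Over all its deposited barcodes there were 11 UMIs in 11 barcodes, 1 UMI in each, against 3396 UMIs in 2183 barcodes of p16-Alb-LRTD, where a single barcode held up to 12. None of the 11 barcodes occurred in the other library. Of the 11, 6 were endothelial cells with 42 to 271 UMIs of Kdr, Stab2 and Ptprb and 0 UMIs of the 5 T and NK cell markers. Another, above the limit of 50000 UMIs and so left out, held 553 UMIs of the endothelial rule genes and 234 of the stellate rule genes. A further 3 held 14 to 17 T and NK cell marker UMIs (Cd3e, Cd3d, Nkg7, Gzma, Trbc2), and the remaining 1 was a stellate cell.

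Those 3 barcodes were 2 unclassified cells and the Kupffer cell with the UMI. That Kupffer cell held all 17 T and NK marker UMIs found in the 283 Kupffer cells of its library. In p16-Alb-LRTD, 1 Kupffer cell held the 15 such UMIs of its class.

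Unclassified cells with 8 or more T and NK marker UMIs per 10000 numbered 11 in p16-LRTD and 14 in p16-Alb-LRTD. They held 2 and 5 Ifi208 UMIs, or 27.4 CPM (3.32 to 99.1) and 36.9 CPM, and the log2 ratio of 0.43 had an interval from -2.18 to 3.82. This list limit was set after the values were seen, and the 25 cells are too few to give a level.

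Within p16-LRTD, Ifi208 was 139-fold (16.9 to 6397) higher in endothelial than in stellate cells, while in p16-Alb-LRTD the same ratio was 1.28 (1.05 to 1.56). The first ratio rests on 6 endothelial UMIs and 1 stellate UMI, and both are of values that the selection of the members used. T and NK markers summed to 2.27 and 0.251 CPM in the endothelial class and to 0.210 and 0.839 CPM in the stellate class. B cell markers summed to 8.94 and 0 CPM in the endothelial class. The part of T and NK cells in the trace was not tested beyond the counts per barcode above, and B cell markers were not counted per barcode.

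Among p16-Alb-LRTD stellate cells, 4859 of 6621 (73.4%) had 0 Ifi208 UMIs, 1166 had 1, 404 had 2, 113 had 3 and 79 had 4 or more. To set libraries side by side at one depth, each cell was thinned to 5000 UMIs. The share of cells with an Ifi208 UMI was then 9.50% (Clopper-Pearson 8.80 to 10.2) in p16-Alb-LRTD stellate cells, 10.2% (6.97 to 14.4) in endothelial cells and 9.60% (5.70 to 14.9) in Kupffer cells. In p16-LRTD it was 0 of 7836 stellate cells, which allows a share of up to 0.0383%, 2 of 418 endothelial cells and 0 of 278 Kupffer cells, which allows up to 1.08%. Without thinning, the shares were 26.6%, 26.5% and 30.9% against 0.0127%, 1.40% and 0.353%. The 3 classes of p16-Alb-LRTD overlapped in this share.

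**Figure D2:**
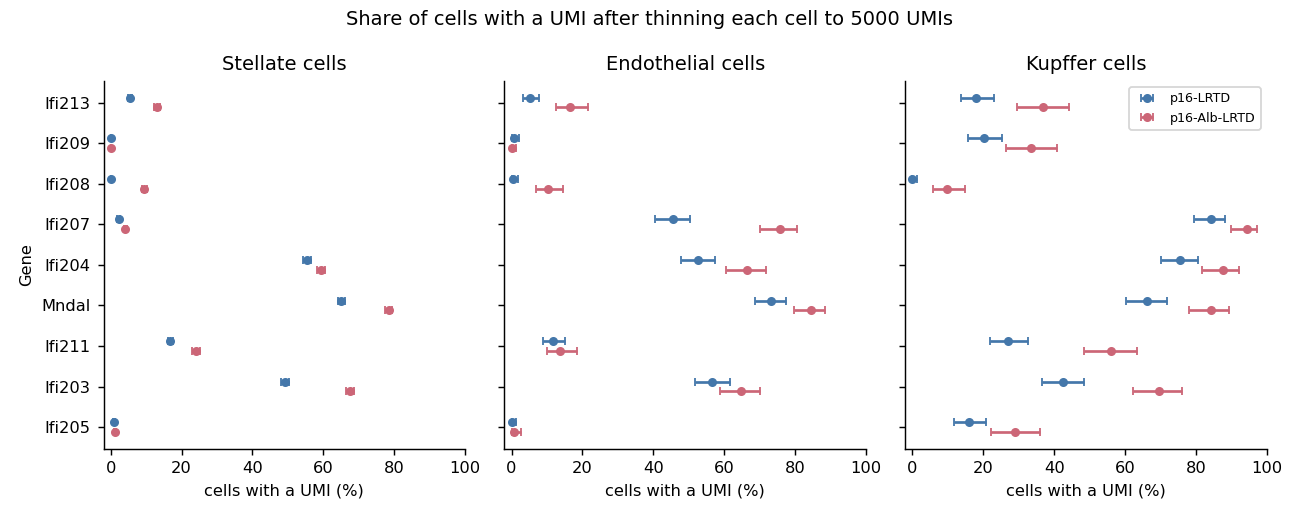
Share of cells with at least 1 UMI of each member (x axis, percent) after thinning each cell to 5000 UMIs, for stellate, endothelial and Kupffer cells, with p16-LRTD in blue and p16-Alb-LRTD in red; bars are 95% Clopper-Pearson intervals, and Ifi202b, at 0 everywhere, is left out. Ifi208 lies at 0, 0.478 and 0% in p16-LRTD and at 9.50, 10.2 and 9.60% in p16-Alb-LRTD.

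Detection of Ifi208 was next set against that of its neighbours in the same p16-Alb-LRTD stellate cells, thinned to 5000 UMIs. Cells with an Ifi206 UMI had an Ifi208 UMI in 13.3%, and cells without one in 8.27%. For Ifi213 the shares were 12.9% and 8.98%, and for Mndal 10.3% and 6.67%. For Ifi203 they were 10.7% and 6.92%, for Ifi204 10.5% and 7.97%, for Ifi211 11.7% and 8.81%, and for Ifi205 12.4% and 9.46%. Ifi207 gave nearly equal shares, 9.78% and 9.48%, and none of the 7 cells with an Ifi209 UMI had one of Ifi208, against 9.51% of the others. In Kupffer cells the shares were 10.2% with and 0% without an Ifi207 UMI, and 13.6% and 7.63% for Ifi209, on 17 cells with Ifi208. The 0% is of just 10 Kupffer cells without an Ifi207 UMI, too few to read as an absence. These shares are a description and the differences between them were not tested; that for Ifi205 in stellate cells rests on 11 cells with both.

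The neighbours of Ifi208 other than Ifi202b were measured in both libraries, and where they differed they did so by degree. Ifi213, whose promoter is nearly that of Ifi208, was at 11.6 and 30.5 CPM in stellate cells of the control and the p16-Alb-LRTD library, a log2 ratio of 1.39 (1.31 to 1.47). In endothelial cells it was at 12.8 and 33.4 CPM (1.38, 0.97 to 1.80), and in Kupffer cells at 44.4 and 102.8 CPM (1.21, 0.99 to 1.44). The 3 intervals overlapped.

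Ifi206, the PYHIN gene that shares this promoter, is no member and was named by its position within 1 Mb. It was at 23.5 and 66.0 CPM in stellate cells (log2 ratio 1.49, 1.43 to 1.55), 20.6 and 43.7 CPM in endothelial cells (1.08) and 22.0 and 77.1 CPM in Kupffer cells (1.81). In the p16-LRTD library, Ifi213 and Ifi206 were at 11.6 CPM or more in every class, and Ifi208 was at 0.975 CPM or less. The nearly identical 250 bases before these 3 genes are those of the reference genome, and the promoters of these mice were not read. The part of the promoter in these levels was not tested.

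Ifi203 and Mndal, whose promoters are alike and which overlap, are HIN-200 genes expressed widely in these cells. Ifi203 was at 144.1 and 255.5 CPM in stellate cells (log2 ratio 0.83, 0.80 to 0.85), 171.7 and 272.9 CPM in endothelial cells (0.67) and 129.4 and 251.7 CPM in Kupffer cells (0.96). Mndal was at 225.2 and 360.8 CPM in stellate cells (0.68, 0.66 to 0.70), 305.5 and 536.5 CPM in endothelial cells (0.81) and 253.0 and 495.2 CPM in Kupffer cells (0.97). Both were higher in p16-Alb-LRTD in each class and below 2-fold as CPM. In Kupffer cells the side of the 2-fold line depended on the processing: the log2 ratio over all alternatives ran from 0.77 to 1.03 for Mndal and from 0.71 to 1.02 for Ifi203, lowest for both in cells with 10000 to 30000 UMIs and highest with median-of-ratios scaling.

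Ifi204, the mouse p204 protein that binds DNA and takes part in interferon induction through STING, had the lowest stellate ratio of the members at 5 CPM or more. It was at 173.6 and 203.3 CPM there (log2 ratio 0.23, 0.20 to 0.25), against 169.5 and 255.8 CPM in endothelial cells (0.59, 0.47 to 0.72) and 320.4 and 567.4 CPM in Kupffer cells (0.82, 0.74 to 0.91). The ratio was lowest in stellate and highest in Kupffer cells; whether it differed between classes was not tested, with 1 library per genotype.

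Ifi207 was chiefly a Kupffer and endothelial transcript. It was at 405.2 and 626.2 CPM in Kupffer cells (log2 ratio 0.63, 0.55 to 0.71) and 160.5 and 364.0 CPM in endothelial cells (1.18, 1.06 to 1.30). In stellate cells it was at 5.22 and 9.58 CPM (0.87, 0.74 to 1.01), which is 1.29% and 1.53% of the Kupffer level. For 7 macrophage markers the stellate level was 0.0955% to 0.311% of the Kupffer level in p16-LRTD and 0.0727% to 0.187% in p16-Alb-LRTD, so Ifi207 was above the range of these markers in both. In the endothelial class the 5 markers of monocyte-derived macrophages were higher in p16-Alb-LRTD too, at 73.3 and 207.1 CPM in sum (4 of 5 at 5 CPM or more), as were the 3 dendritic cell markers at 0 and 9.04 CPM (Xcr1 at 0 in both), while the 8 Kupffer markers were at 164.9 and 109.96 CPM. In the 272 and 166 endothelial cells with no UMI of the 7 macrophage markers the ratio of Ifi207 was 1.19 and that of Ifi213 1.61; the part of monocyte-derived and dendritic cell transcripts was not tested.

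Ifi209 was at 45.8 and 101.7 CPM in Kupffer cells (log2 ratio 1.15, 0.93 to 1.37). In stellate cells it had 12 and 25 UMIs, or 0.0841 and 0.200 CPM, at 0.184% and 0.196% of the Kupffer level. That is within the range of the macrophage markers in p16-LRTD and just above their highest value, 0.187%, in p16-Alb-LRTD. In endothelial cells 9 UMIs faced 2, too few to give a direction, which turned with the class limits doubled.

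Ifi211 and Ifi205, a pair with alike promoters, are HIN-200 genes too, and both were higher in p16-Alb-LRTD Kupffer cells. Ifi211 was at 67.3 and 180.6 CPM there (log2 ratio 1.42, 1.25 to 1.60), 40.6 and 61.7 CPM in stellate cells (0.60, 0.56 to 0.65) and 27.5 and 28.1 CPM in endothelial cells (0.03, -0.32 to 0.39). The endothelial interval includes 0. Ifi205 was at 38.2 and 101.5 CPM in Kupffer cells (1.41, 1.18 to 1.65), 2.81 and 2.90 CPM in stellate cells (0.05, -0.16 to 0.25), and 9 against 4 UMIs in endothelial cells, where the direction turned with the limits on cells.

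Ifi202b, which C57BL/6 mice, the background strain here, are known to express little, had 0 UMIs in the stellate and endothelial cells of both libraries and 1 UMI in p16-LRTD Kupffer cells. The level that 3 counts would give was 0.0210 and 0.0240 CPM in stellate cells, so that a higher level was not detected at this depth.

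**Figure D3:**
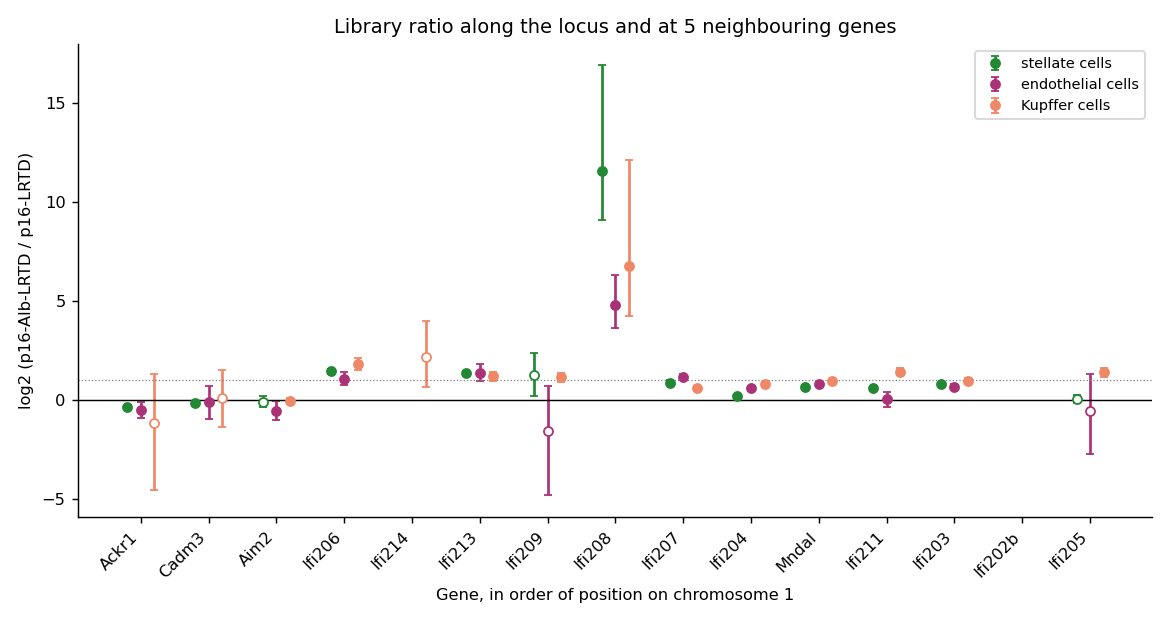
Log2 ratio of p16-Alb-LRTD to p16-LRTD (y axis) for the 10 members and 5 neighbouring genes in order of position, in stellate (green), endothelial (magenta) and Kupffer cells (orange). Bars are exact 95% intervals of counting error, open points are below 5 CPM in both libraries, genes with 0 UMIs in a library have no point, and the dotted line is 2-fold. Ifi208 lies at 11.57, 4.81 and 6.79, the members at 5 CPM or more lie between 0.03 and 1.42 otherwise, and Aim2, Ackr1 and Cadm3 have no filled point above 0.

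Of the 10 members, 7 reached 5 CPM in a library in stellate cells, 7 in endothelial cells and 9 in Kupffer cells, and each of these was measured higher in p16-Alb-LRTD, as were 39.1%, 39.6% and 42.1% of all features at 5 CPM. At least 2-fold higher were 2 in stellate cells (Ifi208, Ifi213), 3 in endothelial cells (Ifi208, Ifi213, Ifi207) and 5 in Kupffer cells (Ifi208, Ifi213, Ifi209, Ifi211, Ifi205). Of all features at 5 CPM, 0.984% were 2-fold higher and 1.37% 2-fold lower in p16-Alb-LRTD stellate cells, 2.48% and 4.75% in endothelial cells, and 2.02% and 2.54% in Kupffer cells. The members just outside the 2-fold line were Mndal (0.97) and Ifi203 (0.96) in Kupffer cells, and the nearest inside it was Ifi209 (1.15). The Kupffer count thus depends on the scaling and the cells used, and was 7 with TMM or median-of-ratios scaling, both adding Mndal and Ifi203, and 4 in cells with 10000 to 30000 UMIs, where Ifi209 was at 0.85. The median log2 ratio of the members at 5 CPM was 0.83, 0.81 and 1.15 in stellate, endothelial and Kupffer cells, or 0.75, 0.74 and 1.06 without Ifi208, beside -0.05, -0.10 and -0.06 over all features. Again the rule used this contrast, and nothing is read from the difference.

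**Figure D4:**
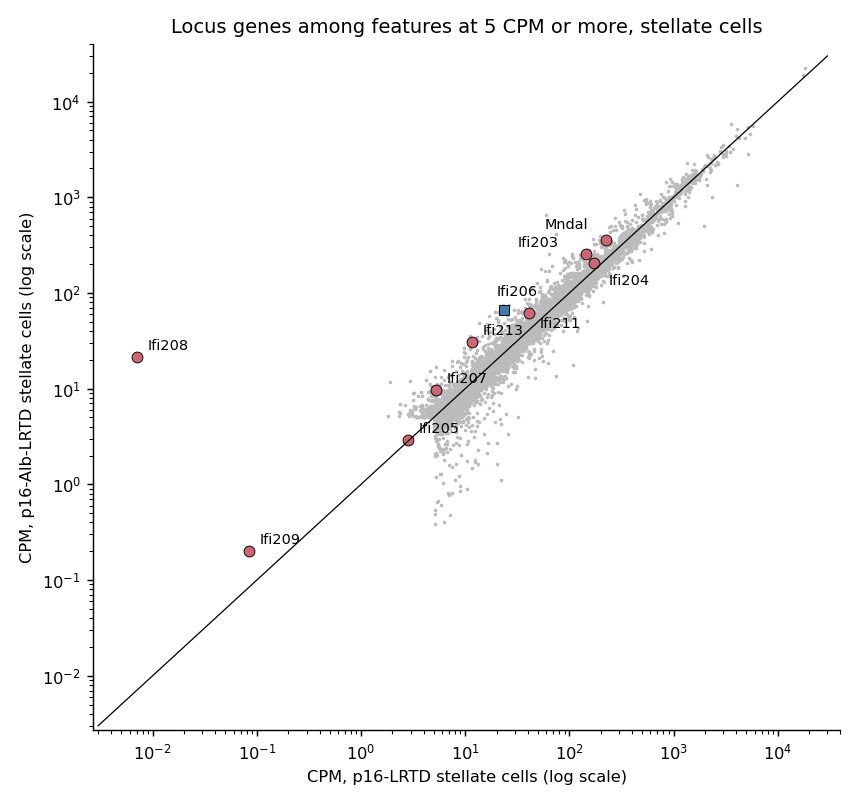
CPM of stellate cells in p16-LRTD (x axis) against p16-Alb-LRTD (y axis), both on log axes, for the 10367 features at 5 CPM or more in either library (grey), with the members as red circles, Ifi206 as a blue square and the line of equal level. Ifi208 lies far left of the cloud at 0.00701 and 21.3 CPM, the graded members lie above the line in the cloud or, as Ifi213, at its upper edge, Ifi202b has no point, and Ifi209 and Ifi205 lie below the 5 CPM limit.

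Within 1 Mb of the span there were 35 other features, of which 4, 5 and 4 reached 5 CPM in stellate, endothelial and Kupffer cells. None was near-absent from a library, and Ifi206 was the 1 past 2-fold in each class. Aim2, the cytosolic DNA receptor next to Ifi206, was at 115.9 and 112.4 CPM in Kupffer cells (log2 ratio -0.04, -0.21 to 0.12), 19.99 and 13.81 CPM in endothelial cells (-0.53, -1.02 to -0.06) and 1.71 and 1.63 CPM in stellate cells. Ackr1, a chemokine-binding receptor, was at -0.35 in stellate and -0.50 in endothelial cells, and Cadm3, an adhesion molecule, at -0.14 and -0.11, both as log2 ratios. Dusp23, a phosphatase, was at -0.21, 0.10 and 0.08, and Slamf8, a macrophage surface protein, at 0.48 in Kupffer cells.

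Stellate cells were then split into 3 equal groups (lower, middle and upper tercile) of collagen transcripts (Col1a1, Col1a2 and Col3a1 per 10000 UMIs) within each library, a measure that the selection of the members did not use. The terciles are not at one collagen level in the 2 libraries, as Col1a1 was at 4510 CPM in the upper tercile of p16-LRTD and 1210 CPM in that of p16-Alb-LRTD. In p16-Alb-LRTD, Ifi208 was at 26.4 CPM in the lower, 21.7 in the middle and 15.8 in the upper tercile, a log2 ratio of upper to lower of -0.74 (-0.88 to -0.60). Ifi213 was at 15.8 CPM in the lower and 7.53 in the upper tercile of p16-LRTD, and at 32.5 and 26.4 CPM in those of p16-Alb-LRTD. Ifi206 showed the same order, at 32.5, 25.8 and 15.1 CPM against 75.2, 68.5 and 54.3 CPM. The log2 ratio of upper to lower tercile was -1.06 for Ifi213 and -1.11 for Ifi206 in p16-LRTD, and -0.30 and -0.47 in p16-Alb-LRTD. Genes without this promoter were lower in the upper tercile too. The same ratio was -0.39 and -0.18 in the p16-LRTD and p16-Alb-LRTD library for Ifi204, -0.36 and -0.20 for Mndal, -0.20 and -0.11 for Ifi203, and -0.86 and -0.55 for Aim2, so the direction was not particular to the genes with the shared promoter.

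Ifi211 and Ifi205 ran the other way. Ifi211 was at 27.7, 37.4 and 52.4 CPM in the lower, middle and upper tercile of p16-LRTD, and at 55.6, 62.0 and 67.4 CPM in p16-Alb-LRTD. The interval of its library ratio was 0.90 to 1.11 (log2) in the lower tercile and 0.29 to 0.44 in the upper. Ifi205 was at 0.873, 1.63 and 5.20 CPM in p16-LRTD and 1.99, 3.04 and 3.68 CPM in p16-Alb-LRTD. Its log2 ratio was 1.19 (0.60 to 1.80) in the lower tercile, 0.90 (0.48 to 1.33) in the middle and -0.50 (-0.79 to -0.21) in the upper, so that the near-equal level over all stellate cells held ratios of opposite sign. Portal fibroblast markers summed to 67.2 and 34.2 CPM and mesothelial markers to 44.5 and 43.7 CPM in the stellate class. The 5 markers of monocyte-derived macrophages summed to 935.2 and 618.3 CPM there, with 2 of them at 5 CPM or more. The part of such cells in the Ifi205 level was not tested.

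**Figure D5:**
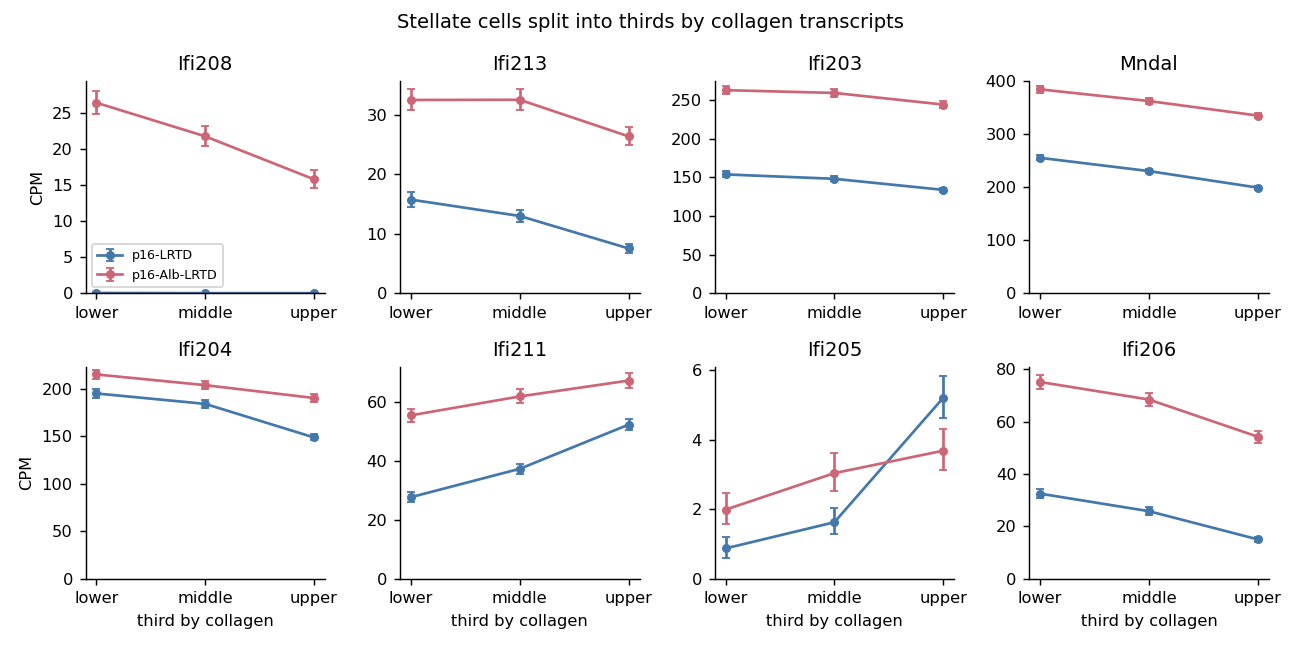
CPM (y axis, from 0) of 8 genes in the lower, middle and upper tercile of stellate cells by collagen transcripts, for p16-LRTD (blue) and p16-Alb-LRTD (red), with 95% exact Poisson intervals. Ifi208 is at 26.4 CPM in the lower and 15.8 CPM in the upper tercile of p16-Alb-LRTD and lies at the axis in p16-LRTD, Ifi211 is higher in the upper tercile of both libraries, and the lines of Ifi205 cross.

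The level of Ifi205 was highest outside the 3 classes. In unclassified cells it was at 197.6 CPM in the control library and 231.2 CPM in the other. Unclassified cells with 8 or more mesothelial marker UMIs (Wt1, Msln, Upk3b) per 10000, 52 and 15 cells, had Ifi205 at 344.6 and 213.5 CPM, a log2 ratio of -0.69 (-1.03 to -0.37). A further 131 and 84 unclassified cells met neither this limit nor that of the T and NK markers. They held 444 and 521 UMIs of Ifi205, against 439 and 95 in the mesothelial-marker cells, and ran the other way. Their level was 142.3 and 249.99 CPM, a log2 ratio of 0.81 (0.628 to 0.999). In all unclassified cells, monocyte-derived macrophage markers summed to 5505 and 8786 CPM, and the 8 Kupffer markers to 5063 and 5202 CPM. Dendritic cell markers were at 17.0 and 101.3 CPM, while the 8 stellate markers (7504 and 5890 CPM) and mesothelial markers (554.1 and 347.9 CPM) were lower in p16-Alb-LRTD. The part of this make-up in the Ifi205 levels was not tested. Ifi208 had 0 UMIs in the mesothelial-marker cells of both libraries, in 1274088 UMIs of p16-LRTD and 445056 UMIs of p16-Alb-LRTD, and 3 counts there would give 2.35 and 6.74 CPM. Ifi213 had 1 and 0 UMIs there, while Ifi204 was at 210.3 and 184.2 CPM. The mesothelial-marker cells thus held Ifi204 and Ifi205 and, in p16-LRTD, 1 UMI of Ifi213, while Ifi208 is low in every class of that library and the 15 cells of p16-Alb-LRTD limit either gene only to below 6.74 CPM.

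Sequence shared between members bears on how far their counts can be kept apart. In the last 500 bases of each member's longest protein-coding transcript, which a 3′ library samples most, every window of 50 bases was looked up in the transcripts of all other genes (GENCODE vM21). For Ifi208 and Ifi213, 12.6% of the windows of either occurred in the other, and the remaining windows of both were found in no other gene. Ifi205 and Ifi211 shared the most, with 79.2% and 77.4% of windows found in another gene, and Ifi209 had 63.4% of its windows in Ifi214. For Mndal the share was 22.0%, for Ifi204 2.22%, and for Ifi203, Ifi207 and Ifi202b 0%. The levels of Ifi205, Ifi211 and Ifi209 are therefore uncertain, since a read within a shared window cannot be given to 1 gene.

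The rest of the interferon response was set beside the locus from lists chosen with earlier results of these data known. Of 46 interferon-inducible genes outside the family, 42, 41 and 44 reached 5 CPM in stellate, endothelial and Kupffer cells, and 41, 36 and 43 of them were higher in p16-Alb-LRTD, beside 39.1%, 39.6% and 42.1% of all features. At least 2-fold higher were 15, 12 and 24, or 35.7%, 29.3% and 54.5% of those measured, beside 0.984%, 2.48% and 2.02% of all features. The medians of the log2 ratio were 0.76, 0.64 and 1.04, beside -0.05, -0.10 and -0.06, and the endothelial median was 0.70 in cells with no macrophage marker UMI. The 1 listed gene that was 2-fold lower was Ifi27, which encodes a small membrane protein, at 84.9 and 37.8 CPM in Kupffer cells (log2 ratio -1.17). Ly6e, a membrane protein that limits viral entry, was at 966.9 and 1444 CPM in stellate cells (log2 ratio 0.58), and in endothelial cells Bst2, which tethers budding virus, was at 699.7 and 630.6 CPM (-0.15).

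Of 15 interferon receptor and signalling genes, 10, 8 and 13 were higher in the 3 classes, with medians of 0.19, 0.04 and 0.36, and 1, 1 and 4 were at least 2-fold higher; the shares and medians over all features are those given above. In stellate cells Irf7, the factor that amplifies type I interferon, was at 64.1 and 169.0 CPM (log2 ratio 1.40). Of the 10, 13 and 16 measured genes for cytosolic DNA sensing and the inflammasome, 7, 9 and 11 were higher, with medians of 0.16, 0.32 and 0.33, and 0, 0 and 2 were at least 2-fold higher, beside the same shares over all features. Among them, Samhd1, which degrades nucleotides, was at 52.3 and 67.3 CPM in stellate cells (0.37), and Tmem173, which encodes STING, was at 47.0 and 28.6 CPM in endothelial cells (-0.71). The graded members had medians of 0.75, 0.74 and 1.06, close to those of the interferon-inducible list in each class, and neither was tested against the other.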

How the data were processed

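Cells enriched for hepatic stellate cells were analysed in 2 libraries, 1 per genotype. The authors' deposited values are raw UMI counts per gene and barcode. Per the submitters' processing notes they were made with Cell Ranger 7.0.1 on mm10; the gene annotation and the treatment of intronic reads are not given in the sources used here. Barcodes with at most 5% mitochondrial UMIs, 2000 to 7000 genes and at most 50000 UMIs were kept. Cells were classed by UMIs per 10000: stellate by Lrat, Ecm1, Hgf and Reln (15 or more), endothelial by Kdr, Stab2 and Ptprb (8 or more) and Kupffer by Clec4f, Cd5l, Vsig4 and Csf1r (8 or more). Barcodes that met 2 or 3 rules were left out, no doublet caller was run, and 194 and 113 barcodes met none.

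Counts were summed per class and library and divided by their total (CPM). As each genotype had a single library, no test was run and p-values are absent. Intervals are 95% exact Poisson (levels), conditional binomial (ratios) and Clopper-Pearson (shares), and 3 counts were taken as the limit that 0 allows. The level and ratio intervals and the near-absence call were tested on counts simulated at the stellate depth. The shares, the thinning and the depths of the other classes were not simulated. TMM and median-of-ratios factors came from edgeR 4.0.16 in R 4.3.3. All other steps used Python 3.11.15 with SciPy 1.17.1, and alignments Biopython 1.88. Gene positions are those of GENCODE vM21, matched for 30934 of 31054 features, and promoter starts are those of RefSeq.

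The members and gene lists were chosen with earlier results of these data known. Genes named were the members, other genes within 1 Mb at 5 CPM or more, features near-absent in 2 or 3 classes, and of each list examples from the 4 with the highest mean CPM. Ifi214 and the barcode subsets were looked at after the values were seen. Alternatives concerned the barcode filter, scaling, class limits, depth, thinning to 3000 UMIs and the thresholds.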

Additional observations from a re-analysis of the deposited data

How the results depend on the processing

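No paired analysis was possible because a single library stood for each genotype, which also left no replicate to leave out. The count of members past 2-fold kept within 1.5 times its value in all 41 alternative values, though in Kupffer cells it went from 5 to between 4 and 7. The count of near-absent members, 1 per class, moved in 5 of 47. In Kupffer cells it was 0 with a minimum of 20 CPM and 2 (Ifi208 and Ifi202b) with no minimum. In endothelial cells it was 0 with a limit of 2%, 0 with the mean of per-cell CPM and 0 without cells with a macrophage UMI; Ifi208 kept a log2 ratio of at least 4.05 there under all alternatives. Over 277 alternative values of the members' log2 ratios, 34 moved beyond the counting interval and 6 changed sign, 4 of them for members on few endothelial UMIs: Ifi209 went from -1.54 to 0.82 with limits doubled, and Ifi205 from -0.54 to 0.35 there, 2.13 with all deposited barcodes and 2.17 with no upper limits; the others were of ratios near 0, Ifi205 in stellate and Ifi211 in endothelial cells; Ifi208 ranged from 10.89 to 11.70 in stellate, 4.05 to 6.86 in endothelial and 5.78 to 7.13 in Kupffer cells, and Ifi211 in endothelial cells from -0.09 to 0.37. Limiting cells to 10000 to 30000 UMIs lowered the Kupffer ratios, for instance of Ifi203 to 0.71 and of Ifi207 to 0.49. TMM and median-of-ratios scaling raised all ratios by 0.04 to 0.10. Thinning to 3000 UMIs gave Ifi208 shares of 5.62% in stellate and 4.49% in Kupffer cells of p16-Alb-LRTD, and 8.83% in endothelial cells, against 10.2% at 5000 UMIs; in all, 43 of the 60 shares moved. Of the list medians, whose alternatives were chosen after seeing the data, that of interferon receptors and signalling in endothelial cells reversed to -0.031 in the same depth band. Depth limits the endothelial and Kupffer values, which rest on 178 to 430 cells.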
